A study of Mus musculus with 2 samples.

Results

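Cycling dendritic cells are dendritic cells (DCs) caught with the transcripts of cell division. They were taken as cells in which the unique molecular identifiers (UMIs, 1 per captured transcript) of Top2a, Mki67, Ube2c and Birc5 summed to at least 5, with at least 5 UMIs of Cd74, at most 1 of Cd3e and fewer than 10 of C1qa, C1qb and C1qc together. Of 15480 cells with 1 hashtag, at least 500 genes and at most 10% mitochondrial UMIs, 14331 met the Cd74, Cd3e and C1q limits, and 1416 of these were members. Hashtags 2, 4, 5, 6, 8 and 9 gave 114, 79, 114, 368, 248 and 493 members. The members were set against the 7345 cells with the same limits and no UMI of the 4 genes, called non-cycling here. The other 5570 cells, with a sum of 1 to 4, entered neither class. Because the 4 genes chose the members, their levels and those of the cell cycle lists, entry and brakes included, are given as a description, without a test.

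The cells were sorted as CD3-B220-CD11c+MHC-II+ from mesenteric lymph nodes (mLN) and from the lamina propria of the small intestine (siLP). The mice were Gm38411-iCre-hCD2 reporters aged 15 days, so cycling and non-cycling cells carried the same allele. Each tissue had 3 biological replicates, and each replicate had its own hashtag antibody. The labels do not tie a hashtag to a tissue, so hashtags were not grouped by tissue and each served as 1 replicate within which the classes were compared. A cDC1 side (Xcr1 and Clec9a summing to at least 3 UMIs) held 250 cycling and 1229 non-cycling cells. A cDC2 side (at least 1 UMI of Sirpa, and Xcr1 and Clec9a summing to at most 1) held 1011 cycling and 3986 non-cycling cells, and 155 cycling and 2130 non-cycling cells were on neither side.

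Conventional DCs come from bone marrow precursors that keep dividing after they seed tissues, and division then fades as the cells mature. Flt3, the receptor for Flt3 ligand, and the beta chain of the GM-CSF receptor (Csf2rb) carry growth signals to them. In dividing cells E2F factors switch on the genes of DNA replication, and the DREAM and B-MYB complexes control the genes of G2 and mitosis through a short element called the CHR and through CCAAT boxes bound by NF-Y. Of the gate genes, Top2a encodes the topoisomerase that untangles chromosomes, Mki67 the Ki-67 protein that coats them, Ube2c the ubiquitin-conjugating enzyme of the anaphase-promoting complex, and Birc5 survivin, a subunit of the chromosomal passenger complex.

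These elements can be read in the promoters of the genes that chose the members. The 250 bases before the start of each gate gene are shown, with Mcm6, a subunit of the replicative helicase, as an S phase gene for comparison. Sequences are from RefSeq on GRCm38.p6, on the strand of the gene. Capitals mark CCAAT, the CHR as TTTGAA, and E2F sites as TTTGGCGC, TTTCCCGC, TTTGCCGC or TTTCGCGC, on either strand, and capitals run together where matches touch or overlap.
Top2a: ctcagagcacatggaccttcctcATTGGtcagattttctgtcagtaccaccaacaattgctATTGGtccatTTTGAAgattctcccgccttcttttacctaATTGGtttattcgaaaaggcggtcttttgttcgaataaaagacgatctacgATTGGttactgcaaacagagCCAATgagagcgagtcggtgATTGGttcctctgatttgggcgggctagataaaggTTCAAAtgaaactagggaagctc
Mki67: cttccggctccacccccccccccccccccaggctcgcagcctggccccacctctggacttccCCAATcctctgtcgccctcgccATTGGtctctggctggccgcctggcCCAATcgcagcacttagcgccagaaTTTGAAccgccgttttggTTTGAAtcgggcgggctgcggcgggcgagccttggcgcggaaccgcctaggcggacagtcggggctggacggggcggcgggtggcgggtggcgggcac
Ube2c: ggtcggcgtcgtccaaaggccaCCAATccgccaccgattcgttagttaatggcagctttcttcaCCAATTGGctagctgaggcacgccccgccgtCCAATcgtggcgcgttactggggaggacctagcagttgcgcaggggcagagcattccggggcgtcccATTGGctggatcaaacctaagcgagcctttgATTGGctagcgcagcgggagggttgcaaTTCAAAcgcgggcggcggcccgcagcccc
Birc5: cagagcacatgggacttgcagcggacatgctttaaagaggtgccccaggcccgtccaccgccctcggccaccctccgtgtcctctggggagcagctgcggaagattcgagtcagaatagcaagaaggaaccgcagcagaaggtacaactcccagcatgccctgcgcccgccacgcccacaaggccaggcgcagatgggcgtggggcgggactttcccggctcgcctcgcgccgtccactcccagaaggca
Mcm6: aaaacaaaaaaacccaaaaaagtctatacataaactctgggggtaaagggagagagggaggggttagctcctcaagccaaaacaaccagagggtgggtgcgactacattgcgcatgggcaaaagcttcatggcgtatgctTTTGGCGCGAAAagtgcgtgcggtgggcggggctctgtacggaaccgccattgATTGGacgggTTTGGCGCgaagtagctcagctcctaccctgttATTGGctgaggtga
They lie at chr11:99024190-99024439 (minus strand), chr7:135716380-135716629 (minus), chr2:164769679-164769928 (plus), chr11:117848987-117849236 (plus) and chr1:128359706-128359955 (minus), in that order. Top2a held 6 CCAAT and 2 CHR matches, Mki67 3 and 2, and Ube2c 6 and 1. Birc5 held none of these letters in this window, and Mcm6 held 2 CCAAT and 3 E2F matches. Among all 32851 promoters of the table, read from 250 bases before to 50 after the start, 37.4% held a CCAAT, 17.9% a CHR and 2.26% an E2F match. Of the 37 promoters of 35 genes on a list of G2 and mitosis genes, 78.4% held a CCAAT, 73.0% a CHR and 2.70% an E2F match. Of the 28 promoters of 25 genes on a list of DNA replication genes, 67.9% held a CCAAT, 14.3% a CHR and 46.4% an E2F match. A match is a description of the sequence and was not tested as a binding site.

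The gate genes were detected at levels that differed between replicates. Levels are given in CPM, the UMIs of a gene per 1000000 UMIs of its class in a hashtag. In cycling cells of hashtags 2, 4, 5, 6, 8 and 9, Top2a stood at 719, 648, 573, 275, 180 and 304 CPM. Mki67 stood at 527, 505, 445, 357, 404 and 372 CPM in the same order. Top2a therefore spread over a wider range than Mki67, with hashtags 2, 4 and 5 highest for both. Ube2c ran between 102 CPM in hashtag 8 and 347 CPM in hashtag 2, and Birc5 between 98.2 CPM in hashtag 8 and 255 CPM in hashtag 2. All 4 genes were at 0 in non-cycling cells, by the rule. The gene with the most UMIs was Top2a in 70, 52 and 65 members of hashtags 2, 4 and 5, and Mki67 in 218, 183 and 265 members of hashtags 6, 8 and 9.

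Other genes of the cycle, which the gate did not use, stood higher in members. Pclaf, a PCNA-binding factor of replication, averaged 390.2 ± 154 CPM in cycling cells and 6.45 ± 2.00 CPM in non-cycling cells (SD, n = 6 hashtags each), with no overlap: the lowest cycling value was 163 CPM and the highest non-cycling value 10.1 CPM. Stmn1, which destabilises microtubules, averaged 549.8 ± 181 CPM in cycling cells and 23.1 ± 6.85 CPM in non-cycling cells. Cdk1, the mitotic kinase, ran from 28.7 CPM in hashtag 8 to 142 CPM in hashtag 2 in cycling cells, and from 2.01 to 4.22 CPM in non-cycling cells. The chromatin protein Hmgb2 was the most abundant of the G2 and mitosis list, at 1666 ± 682 CPM in cycling and 218 ± 15.4 CPM in non-cycling cells. All 35 genes of the DNA replication list and all 40 of the G2 and mitosis list outside the gate had positive log2 fold changes, with medians of 2.04 and 4.58. Of the other cell cycle lists, all 21 genes of nucleotide synthesis (median 1.01) and all 20 of chromatin, histones and the nuclear lamina (median 1.48) were positive. Only 10 of 15 tubulin and cytoskeleton genes were (median 0.23). The histone genes have close paralogs between which reads may be split, so their values are uncertain.

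The name cycling held unevenly over the members, and the number of gate genes found in a cell shows where. Of the 1416 members, 438 had UMIs of all 4 genes, 298 of 3, 370 of 2 and 310 of 1 alone, and 286 of those 310 had Mki67 alone. Members with 1 gene numbered 4, 6 and 4 in hashtags 2, 4 and 5, while hashtags 6, 8 and 9 held 90, 93 and 113. Summed over the DNA replication list, four-gene members had 2668 CPM, one-gene members 639 CPM and non-cycling cells 562 CPM. Summed over the G2 and mitosis list, the same classes had 6550, 482 and 459 CPM. Pclaf stood at 553 CPM in four-gene members, 27.9 CPM in one-gene members and 5.85 CPM in non-cycling cells. Mki67 itself stood at 412 CPM in one-gene members and 510 CPM in four-gene members. The rule sets this in part, because a one-gene member needs at least 5 UMIs of its only gene. The replication list of one-gene members stood at 777, 429 and 542 CPM in hashtags 6, 8 and 9, against 497, 434 and 487 CPM in their non-cycling cells. The few one-gene members of hashtags 2, 4 and 5 had 3227, 1842 and 4985 CPM, against 790, 722 and 745 CPM in non-cycling cells. One-gene members thus lay close to non-cycling cells in hashtags 8 and 9 and above them in the other 4. For the 286 with Mki67 alone the word cycling rests on Mki67.

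**Figure D1:**
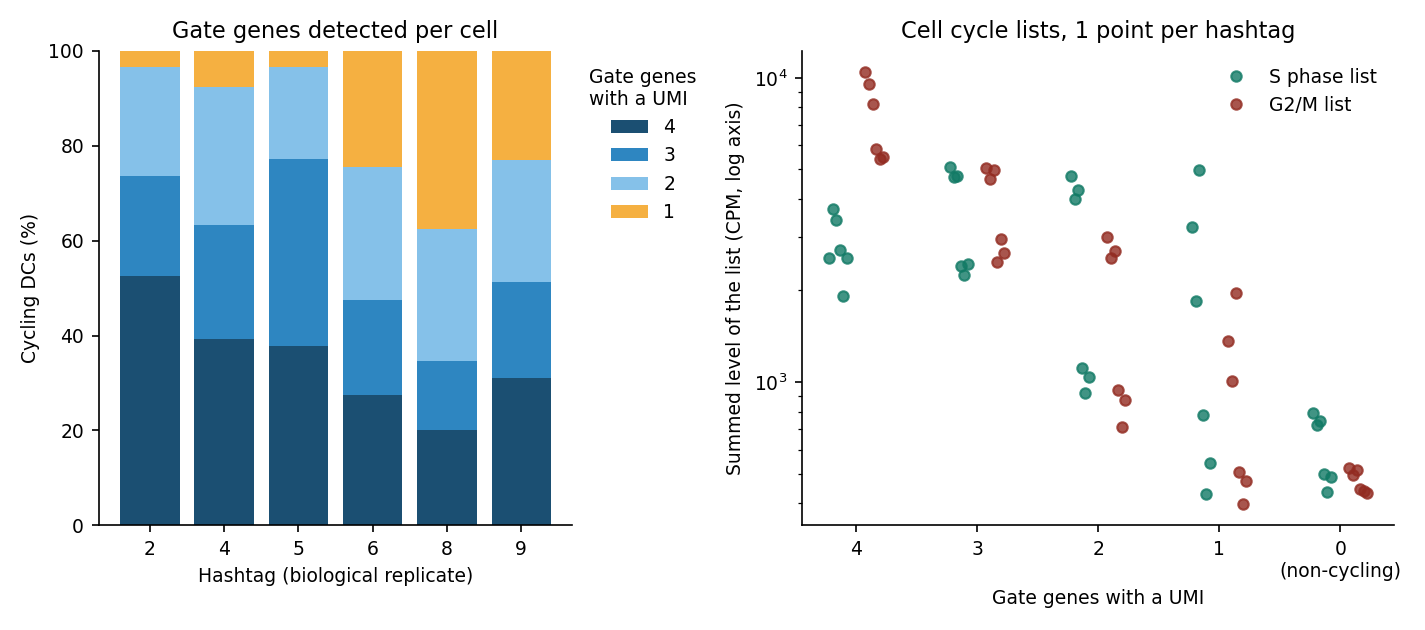
Left, percentage of cycling DCs in each hashtag with UMIs of 4, 3, 2 or 1 of the gate genes (stacked bars). Right, summed CPM of the DNA replication (S phase) and G2 and mitosis (G2/M) lists by number of gate genes with a UMI, 1 point per hashtag in the order 2, 4, 5, 6, 8, 9, on a log axis, with non-cycling cells at the right; one-gene members lie nearest to the non-cycling cells in hashtags 8 and 9 (for the S phase list 429 and 542 CPM, against 434 and 487 CPM). The gate genes are not in the G2/M sum.

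The one-gene members also differed in a second respect. A share of 53.5% of them had at least 3 UMIs of Ccr7 and Fscn1 together, the chemokine receptor and actin-bundling protein of migratory DCs. Among four-gene members it was 3.33%, 12.9% and 16.3% in hashtags 2, 4 and 5, whereas hashtags 6, 8 and 9 had 31.7%, 34% and 32.0%. Over all members it was 6.14%, 12.7% and 14.9% in hashtags 2, 4 and 5, whereas hashtags 6, 8 and 9 had 44.6%, 48.4% and 39.1%. In non-cycling cells it was 26.5%, 26.6%, 30.5%, 19.2%, 22.4% and 24.4% in that order of hashtags. So by this raw count, members exceeded non-cycling cells in hashtags 6, 8 and 9 and fell short of them in hashtags 2, 4 and 5. A raw count depends on depth, and members were deeper in every hashtag. Their medians were 12374.5, 12690, 14735.5, 17541, 16486 and 17886 UMIs in that order of hashtags. Those of non-cycling cells were 5926.5, 5873.5, 5841, 11302, 10085 and 11295.5 UMIs. The part of depth in these shares was not tested. In CPM, Ccr7, Fscn1, Ccl22, Cacnb3 and Nudt17 summed to 109, 613, 240, 371, 505 and 319 in cycling cells, in the same order. In non-cycling cells they summed to 1091, 1432, 1342, 274, 290 and 305 CPM. Pooled over hashtags, whose shares differ between the classes, Ccr7 was at 251 CPM in cycling and 211 CPM in non-cycling cells. Fscn1 (41.8 and 182 CPM), Ccl22 (48.3 and 93.6), Cacnb3 (12.3 and 85.7) and Nudt17 (4.79 and 29.0) were lower in cycling cells.

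At the threshold itself the cells changed gradually. The 267 members with a sum of exactly 5 had 58.8 CPM of Pclaf and 829.7 CPM of the G2 and mitosis list. The 478 cells just outside, with a sum of 4, had 34.8 and 673 CPM. The 12 cells with sums of 100 to 150 had 10850 CPM of the G2 and mitosis list but 1541 CPM of the replication list. The replication list peaked instead at sums of 20 to 49, with 3283 CPM. Ccr7 was at 383 CPM at sums of 6 to 9 and at 16.1 CPM at sums of 100 to 150. These levels are pooled over hashtags, and the mix of hashtags changes with the sum. Of 114, 79, 114, 368, 248 and 493 members in hashtags 2, 4, 5, 6, 8 and 9, sums of at least 10 were held by 78, 52, 77, 154, 81 and 221. The part of this mix in the levels was not tested.

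**Figure D2:**
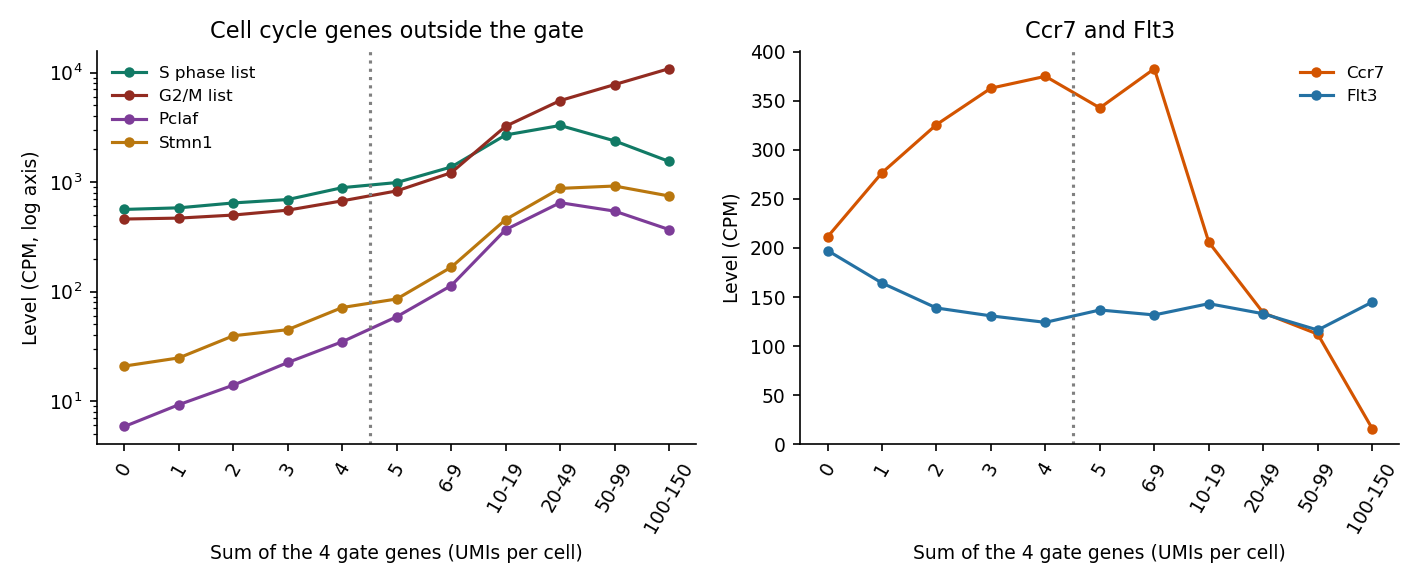
Levels (CPM, pooled over hashtags) by the sum of the 4 gate genes per cell; the dotted line marks the gate between sums of 4 and 5. Left, on a log axis, the S phase and G2/M lists, Pclaf and Stmn1 rise across the gate without a break. Right, Ccr7 is highest between sums of 3 and 9 and Flt3 is highest at a sum of 0. The mix of hashtags changes with the sum, and its part was not tested.

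Members were deeper libraries than the cells they were compared with. The median cell had 16810 UMIs and 3692 genes among cycling cells, and 8623 UMIs and 2618 genes among non-cycling cells. In all, a hashtag gave 1135885 to 9312685 UMIs of cycling cells. The median share of mitochondrial UMIs was 1.52% in cycling and 1.88% in non-cycling cells. Hashtags 2, 4 and 5 were shallower than hashtags 6, 8 and 9: the median non-cycling cell had 5841 to 5927 UMIs in the first 3 and 10085 to 11302 in the others. A gate on raw UMIs takes deeper cells more readily, so results are also given with non-cycling cells matched to members by depth. This setting was added after the data had been seen. It left 72 to 422 non-cycling cells in a hashtag and 9822 genes tested over the whole gate. Members stayed deeper: on the cDC1 side their median was 20997.5 UMIs against 16936.5 in hashtag 5, and 23212.5 against 23134 in hashtag 8. Whether calls lost in this setting reflect depth or fewer cells was not tested. The DC markers Flt3, Zbtb46, H2-Aa, H2-Ab1 and Itgax summed to 6797 to 12228 CPM over hashtags in cycling cells. In non-cycling cells they summed to 6652 to 12795 CPM. Most of the sum was H2-Aa and H2-Ab1 (5924 and 4447 CPM in cycling cells, pooled over hashtags), and MHC-II was a sort marker. Flt3, Zbtb46 and Itgax stood at 133, 159 and 174 CPM in cycling and 197, 195 and 177 CPM in non-cycling cells. Markers of T cells summed to 3.70 to 9.65 CPM in cycling and 3.35 to 39.4 CPM in non-cycling cells. Macrophage markers summed to 68.2 to 122 CPM in cycling and 75.2 to 180.1 CPM in non-cycling cells. They were lower in cycling cells in all 6 hashtags. Most of this was Adgre1 (66.0 CPM in cycling cells), and the gate itself limited the C1q genes of this list in both classes. Monocyte markers summed to 12.9 to 144 CPM in cycling and 20.1 to 87.4 CPM in non-cycling cells, higher in cycling cells of 4 hashtags. Ighm led the B cell markers (54.5 CPM in cycling, 60.1 CPM in non-cycling cells) and Epcam the epithelial ones (93.1 and 73.2 CPM). NK cell markers summed to 65.2 to 105 CPM in cycling and 80.3 to 102 CPM in non-cycling cells, nearly all of it Klrd1 (89.5 CPM in cycling cells), with Eomes at 0 in cycling cells. Neutrophil markers summed to 3.12 to 9.69 CPM in cycling and 2.25 to 12 CPM in non-cycling cells, with S100a8 and S100a9 at 0 in cycling cells. Erythroid markers, led by the globin gene Hbb-bs, summed to 20.4 to 669 CPM in cycling and 34.8 to 579 CPM in non-cycling cells, and their part in the results was not tested. Barcodes of at most 100 UMIs, which hold free RNA, had 91.0 CPM of Mki67 and 54.0 CPM of Top2a. Cycling cells of every hashtag stood above these levels, but the gate chose them for UMIs of these genes. The comparison therefore cannot show whether free RNA brought cells into the gate.

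Whether the other genes of a DC differ with cycling was asked first over the whole gate. Raw counts were summed per hashtag and class, and edgeR's quasi-likelihood test compared the 2 classes within hashtags. The genes of the gate and of the cell cycle lists were left out of the counts, except the list of entry and brakes. Of the 11860 genes left, 2817 were called at an adjusted p below 0.05, 23.8% of those tested. Of these, 1396 (11.8%) were higher in cycling cells and 1421 (12%) lower. The median log2 fold change over all genes tested was -0.08, and changes below are to be read against it. The counts fell to 1821, 1892 and 1828 when hashtag 2, 4 or 5 was left out. With depth-matched non-cycling cells 1925 genes were called. The genes called higher include genes of the entry and brakes list and further genes of the cycle that are on none of the lists.

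Regulators of the cycle's entry point, given as a description, lay on both sides of zero. Of 22 genes on a list of cell cycle entry and brakes, 10 had positive and 12 negative log2 fold changes, with a median of -0.06. E2f1, the activator of replication genes, had 42.2, 57.2, 51.3, 22.4, 9.11 and 20.9 CPM in cycling cells of hashtags 2, 4, 5, 6, 8 and 9, against 9.94, 10.1, 9.46, 6.36, 3.92 and 6.14 CPM in non-cycling cells. It was higher in cycling cells of every hashtag, by 1.88 ± 0.15 on the log2 scale (SE). Brakes were higher too: Cdkn2c, an inhibitor of CDK4 and CDK6, by 2.67 ± 0.22 and Cdkn2d of the same family by 1.43 ± 0.20. Ccnd3, the D-type cyclin that partners those kinases, was lower in 6 of 6 hashtags, with a log2 fold change of -0.64 ± 0.13. Its levels were 48.6 to 171 CPM in cycling cells and 67.7 to 308 CPM in non-cycling cells, so the classes overlapped across hashtags though not within any of them. The differences of Ccnd1 (-0.22 ± 0.09), Ccnd2 (-0.70 ± 0.28), Cdkn1a (-0.29 ± 0.29), Cdkn1b (-0.05 ± 0.08), Myc (0.02 ± 0.14) and Mycl (-0.12 ± 0.26) were of mixed direction over hashtags. Trp53, the gene of p53, rose by 0.47 ± 0.08 (edgeR adjusted p = 0.0031, higher in 6 of 6 hashtags). Of the 14 genes of p53 and apoptosis, Trp53 was the only one to rise and 2 fell, with a median of -0.14, but none fell without hashtag 2, 4 or 5.

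Genes of protein synthesis and folding were higher in cycling cells. On a list of ribosome biogenesis, 11 of 20 genes rose and none fell, with a median log2 fold change of 0.40. Pa2g4, a growth factor-responsive nucleolar protein, had 146, 159, 161, 126, 78.6 and 103 CPM in cycling cells of hashtags 2, 4, 5, 6, 8 and 9, against 64.2, 58.9, 53.4, 64, 50.5 and 57.8 CPM in non-cycling cells. The lowest cycling value, in hashtag 8, lay above the highest non-cycling one, and the difference was 1.003 ± 0.114 (edgeR adjusted p = 0.00025). Nop58, a core protein of nucleolar RNPs, rose by 0.83 ± 0.14. Of 18 genes of the proteasome and chaperones, 8 rose and none fell (median 0.19). The prolyl isomerase Ppia led them, with a median of 2062 CPM over the 6 hashtags in cycling cells (1275 to 2338) and of 1035 CPM in non-cycling cells (950.5 to 1090), a difference of 0.76 ± 0.10 (edgeR adjusted p = 0.00052). Hspd1, the mitochondrial chaperonin, rose by 0.50 ± 0.08. With depth-matched non-cycling cells 8 ribosome biogenesis genes and 3 proteasome and chaperone genes rose. Leaving out a hashtag left 8 to 11 ribosome biogenesis genes. Proteasome and chaperone genes numbered 4 without hashtag 2, 4, 5 or 6, 5 without hashtag 8 and 6 without hashtag 9.

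Energy genes moved less securely. Of 19 genes of oxidative phosphorylation, 12 rose and none fell, with a median log2 fold change of 0.37. Atp5j, a subunit of ATP synthase, had 135 to 209.8 CPM in cycling cells and 108 to 124 CPM in non-cycling cells, without overlap between the classes, and rose by 0.51 ± 0.09 (edgeR adjusted p = 0.0033). With depth-matched non-cycling cells only 1 gene of this list rose and 1 fell, and with cells of 8000 to 40000 UMIs 2 rose and 1 fell. The count was 3, 3, 3, 4, 10 and 8 without hashtag 2, 4, 5, 6, 8 and 9. Of 15 glycolysis genes 7 rose and 2 fell (median 0.11). Tpi1, triosephosphate isomerase, had 35.5 to 94.2 CPM in cycling and 27.6 to 40.8 CPM in non-cycling cells and rose by 0.84 ± 0.12 (edgeR adjusted p = 0.001). Gapdh, the enzyme of the next step, rose by 0.59 ± 0.08, with 476 to 621 CPM in cycling and 309.8 to 402 CPM in non-cycling cells. With depth-matched cells 2 glycolysis genes rose and 3 fell. Without hashtag 2, 4, 5 or 6, 3 rose, and 1 fell without any 1 of hashtags 4, 5, 6, 8 and 9. On a list of sterol synthesis none of 15 rose and 1 fell: Msmo1, a demethylating enzyme of the pathway, whose call was lost without hashtag 2, 6, 8 or 9.

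**Figure D3:**
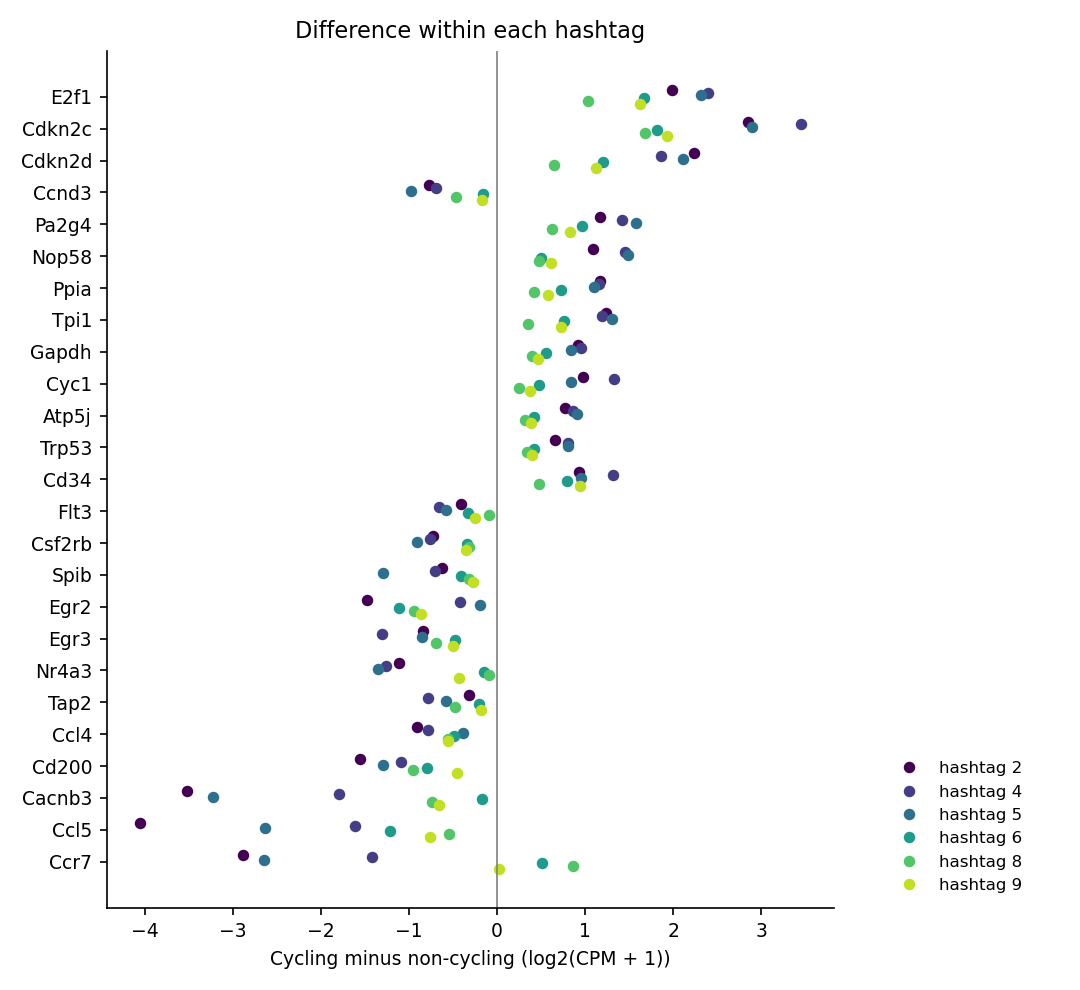
Difference in level between cycling and non-cycling cells within each hashtag, as log2(CPM + 1), for 25 genes of the whole-gate comparison; 1 point per hashtag. Points of Pa2g4, Ppia, Flt3, Csf2rb and Egr2 lie on 1 side of zero in all 6 hashtags, while Ccr7 is lower in cycling cells of hashtags 2, 4 and 5 and higher in those of 6, 8 and 9.

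Early response genes, the transcription factors and phosphatases that a cell induces soon after a stimulus, were lower in cycling cells. All 17 had negative log2 fold changes, with a median of -0.52, and 15 fell. Egr2 had 3.62, 6.16, 13.7, 12.5, 13.4 and 11.9 CPM in cycling cells of hashtags 2, 4, 5, 6, 8 and 9, against 11.8, 8.57, 15.7, 28.1, 26.8 and 22.6 CPM in non-cycling cells. It was lower in every hashtag, with a log2 fold change of -1.005 ± 0.148 (edgeR adjusted p = 0.0014). Egr1 (-0.64 ± 0.09), Junb (-0.60 ± 0.11), Dusp1 (-0.77 ± 0.10) and Btg2 (-0.55 ± 0.07), chosen after their values were seen, were lower in 6 of 6 hashtags too. Egr3, with a log2 fold change of -0.77 ± 0.12, had 70.7 to 95.9 CPM in cycling cells of hashtags 6, 8 and 9 and 4.40 to 9.69 CPM in those of hashtags 2, 4 and 5. Its non-cycling values were 115 to 134 CPM and 12.4 to 18.3 CPM. The level therefore differed more between hashtags than between classes. With depth-matched cells 8 of the genes fell (median -0.35) and Egr3 was no longer called.

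Flt3 and Csf2rb, receptors of DC growth factors, were lower in cycling cells. Flt3 had 261, 225, 237, 106, 113 and 109 CPM in cycling cells of hashtags 2, 4, 5, 6, 8 and 9, against 346, 358, 355, 133, 119.8 and 129 CPM in non-cycling cells. It was lower in 6 of 6 hashtags, with a log2 fold change of -0.49 ± 0.10 (edgeR adjusted p = 0.0082). Csf2rb followed it, with 97.7, 97.7, 82.1, 480, 495 and 493 CPM in cycling and 162, 166, 156, 608, 614 and 631 CPM in non-cycling cells, a change of -0.65 ± 0.11 (edgeR adjusted p = 0.0032). Both genes kept within-hashtag order although hashtags 6, 8 and 9 held less Flt3 and more Csf2rb than the others. On the list of DC progenitors and growth factor receptors, 4 of the 15 genes past the filter on low counts fell and 1 rose (median -0.30), and 3 of its 18 genes did not pass the filter. The 1 that rose was Cd34, a surface protein of haematopoietic progenitors, at 3.42 to 6.69 CPM in cycling and 0.816 to 4.02 CPM in non-cycling cells (0.99 ± 0.19; edgeR adjusted p = 0.0058), levels that amount to 150 and 189 UMIs in all. Kit, the stem cell factor receptor, did not pass the test, with 0.01 ± 0.08 and 184.9 to 274 CPM in cycling cells against 187 to 234 CPM in non-cycling cells. Zbtb46, a transcription factor of conventional DCs, did not pass either (-0.30 ± 0.10).

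Maturation genes were lower, but not evenly over replicates. All 20 genes of a DC maturation and migration list had negative log2 fold changes, with a median of -0.84, and 8 fell. Ccl5, a chemokine, had 59.7, 311, 185, 38.6, 46.2 and 45.2 CPM in cycling cells of hashtags 2, 4, 5, 6, 8 and 9, against 1009, 955, 1155, 90.6, 68.2 and 77.5 CPM in non-cycling cells (-1.86 ± 0.43; edgeR adjusted p = 0.014). Cacnb3, a calcium channel subunit high in migratory DCs, had 21.1, 73.1, 26.8, 8.83, 4.31 and 6.87 CPM in cycling cells, against 253, 256, 259, 10.1, 7.84 and 11.4 CPM in non-cycling cells (-1.92 ± 0.46; edgeR adjusted p = 0.016). It was lower in every hashtag, though its adjusted p was 0.0512 without hashtag 4. Ccr7 did not pass the test: it had 19.3, 63.4, 30.8, 300.2, 437 and 236 CPM in cycling cells and 149, 171, 197, 211, 241 and 232 CPM in non-cycling cells (-0.85 ± 0.53). The share of cells carrying Ccr7 and Fscn1, given above, was lower in cycling cells of hashtags 2, 4 and 5 and higher in those of the other 3, where Ccl5 and Cacnb3 were lower as well. Without cells of at least 3 UMIs of Ccr7 and Fscn1 together, 9 of the 20 genes fell, with a median of -0.54. The list's count was 5 without hashtag 4 and 12 without hashtag 8. Among members with at least 3 of the 4 gate genes, a setting added after the data had been seen, 18 of the 20 fell, with a median of -1.30.

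Genes of antigen presentation and sensing were lower where they changed. Of 13 genes of MHC class I presentation none rose and 6 fell (median -0.32). Tap2, a subunit of the peptide transporter into the endoplasmic reticulum, had 40.5 to 70.6 CPM in cycling and 50.8 to 107 CPM in non-cycling cells and was lower in 6 of 6 hashtags (-0.51 ± 0.10; edgeR adjusted p = 0.0069). Only 1 gene of this list fell when hashtag 2, 4 or 5 was left out. Of 14 MHC class II presentation genes none rose and 6 fell (median -0.18), but H2-Ab1, a chain of the class II molecule itself, did not pass the test (-0.003 ± 0.058), with 2902 to 4992 CPM in cycling and 2412 to 5170 CPM in non-cycling cells. The class II count was 2 without hashtag 4 or 5, 3 without hashtag 2, 6 or 9 and 4 without hashtag 8. Of 15 Toll-like receptors and adaptors past the filter 4 fell, and 2 without hashtag 9, among them Unc93b1, the chaperone that brings endosomal receptors to their place (-0.37 ± 0.06; edgeR adjusted p = 0.0028). Ccl4, a chemokine, had 76.0, 73.1, 102, 847, 782 and 707 CPM in cycling cells, against 143, 127, 134, 1188, 1149 and 1040 CPM in non-cycling cells (-0.71 ± 0.08; edgeR adjusted p = 0.00036). Of 15 genes of cytokines and chemokines past the filter none rose and 3 fell. Cd200, an inhibitory surface ligand, had a log2 fold change of -1.17 ± 0.15 and was 1 of 2 of 14 costimulation and checkpoint ligands that fell, beside 1 that rose, while none rose without hashtag 2, 4, 6 or 9. Among 12 interferon-stimulated genes past the filter 4 fell, and 2 without hashtag 2, 4, 5 or 9. Of 14 lysosome and uptake genes 5 fell, and 3 without hashtag 2. Among subset genes, 3 of 16 cDC1 genes fell, and none without hashtag 6 or 9, and 2 of 15 cDC2 genes fell, and 0 or 1 without any 1 hashtag. These shares are to be set against the 12% of all genes tested that were called lower, which the cDC2 genes hardly pass.

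Outside all lists, the 5 highest genes among those called, higher in each of the 6 hashtags and with at least 20 CPM in 1 class, were themselves genes of the cycle. Esco2, which acetylates cohesin in S phase, had 18.5 to 74.8 CPM in cycling and 0.246 to 0.789 CPM in non-cycling cells. Aspm, a spindle pole protein, had 12.5 to 82.6 CPM in cycling and 0.292 to 1.26 CPM in non-cycling cells, and the others were Pbk and the histone genes Hist1h2af and Hist1h3c. The 5 lowest were 1810064F22Rik (-3.81 ± 0.32), Gm16685 (-2.34 ± 0.40), Adcy6 (-2.33 ± 0.47), Tnfrsf4 (-2.30 ± 0.30) and Kdm5b (-2.24 ± 0.40). Tnfrsf4, the gene of OX40, had 0.719 to 19.4 CPM in cycling and 1.72 to 62.7 CPM in non-cycling cells. Kdm5b, a histone H3 lysine 4 demethylase, had 3.02, 5.28, 0.570, 2.14, 3.83 and 4.08 CPM in cycling cells of hashtags 2, 4, 5, 6, 8 and 9, against 32.8, 36.6, 38.4, 7.09, 9.37 and 8.64 CPM in non-cycling cells. Its classes did not overlap in any pair or across hashtags, and the edgeR adjusted p was 0.004.

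The subsets were then held apart, in 1 fit whose classes shared 1 estimate of the spread. On the cDC1 side 2254 of 10508 genes were called (21.5%), 1210 (11.5%) higher and 1044 (9.94%) lower in cycling cells. On the cDC2 side 1494 were called (14.2%), 841 (8%) higher and 653 (6.21%) lower, and 960, 955 and 921 without hashtag 2, 4 or 5. With depth-matched non-cycling cells the counts were 1229 and 905. Early response genes fell in 12 of 17 cases on the cDC1 side and 7 of 17 on the cDC2 side, with medians of -0.63 and -0.53, against 3 and 0 with depth-matched cells. On the cDC2 side 4 fell without hashtag 2. Oxidative phosphorylation genes rose in 12 of 19 cases on the cDC1 side and 4 of 19 on the cDC2 side, and ribosome biogenesis genes in 9 and 6 of 20. On the cDC2 side 3 ribosome biogenesis genes rose without hashtag 5, and 1, 2, 2 and 7 oxidative phosphorylation genes rose without hashtag 2, 4, 5 and 8. With depth-matched cells oxidative phosphorylation genes rose in 5 and 0 cases. Flt3 was lower on both sides, with log2 fold changes of -0.48 ± 0.11 on the cDC1 side and -0.49 ± 0.11 on the cDC2 side (edgeR adjusted p = 0.0033 and 0.0032).

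Among cDC1-side cells, some cDC1 genes and MHC class II presentation genes were lower in cycling cells. Of 16 cDC1 genes 5 fell and none rose (median -0.32), against a median of -0.07 for all genes tested. On the cDC2 side 3 of these 16 genes fell (median -0.23), as did 1 of 14 MHC class II presentation genes (median -0.21). The median of all genes tested there was -0.09. No gene of either list was called in the difference between the sides, so neither fall is shown to be particular to cDC1. Cadm1, an adhesion protein of cDC1, had 495, 376, 503, 935, 1119 and 1055 CPM in cycling cells of hashtags 2, 4, 5, 6, 8 and 9, against 854, 873, 874, 1563, 1621 and 1604 CPM in non-cycling cells (-0.92 ± 0.14; edgeR adjusted p = 5.3e-05). Ppt1, a lysosomal thioesterase, did not overlap between the classes, with 607 to 819 CPM in cycling and 982 to 1316 CPM in non-cycling cells (-0.83 ± 0.09; edgeR adjusted p = 3.2e-07). Irf8, the transcription factor that fixes cDC1 identity, did not pass the test (-0.30 ± 0.14), with 888 to 1617 CPM in cycling and 1162 to 1559 CPM in non-cycling cells. Ciita, the switch of MHC class II transcription, had 336, 283, 321, 105, 124 and 130.0 CPM in cycling cells, against 523, 541, 450.1, 174, 191 and 175 CPM in non-cycling cells (-0.76 ± 0.12; edgeR adjusted p = 5.2e-05). H2-Ob, a chain of the class II modulator H2-O, changed by -1.02 ± 0.13 with 33.2 to 103 CPM in cycling and 90.0 to 122 CPM in non-cycling cells. In all, 5 of 14 MHC class II presentation genes fell and none rose there, and 3 fell without hashtag 6. Tlr11, a sensor of profilin and flagellin in mouse cDC1, changed by -0.71 ± 0.15 with 25.2 to 104 CPM in cycling and 38.9 to 147 CPM in non-cycling cells. Of 15 progenitor and receptor genes 7 fell, Csf2rb by -0.71 ± 0.16. Cdkn1a, the p21 brake, differed by 1.51 ± 0.49, as a description, and was higher in 5 of 6 hashtags. It had 6.94, 11.7, 31.2, 24.6, 18.8 and 36.0 CPM in cycling cells and 9.47, 5.72, 10.8, 5.40, 7.94 and 6.94 CPM in non-cycling cells.

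On the cDC2 side maturation genes were among those that fell. All 20 genes of the list had negative log2 fold changes (median -0.97, against -0.09 for all genes tested), and 9 fell, while 1 of 20 fell on the cDC1 side (median -0.18), and none there without hashtag 2, 4, 5 or 6. Cd63, a tetraspanin of endosomes, had 8.96 to 76.9 CPM in cycling and 21.2 to 229 CPM in non-cycling cells of the cDC2 side and was lower in 6 of 6 hashtags (-1.70 ± 0.37; edgeR adjusted p = 0.0028). The list's count was 2 without hashtag 2 and 4 without hashtag 4 or 5. Of 13 MHC class I presentation genes 6 fell on the cDC2 side and 1 rose on the cDC1 side (none without hashtag 6), and the cDC2 count was 4, 1 and 3 without hashtag 2, 4 and 5. None of 15 cDC2 genes was called on their own side. Irf4, a transcription factor of cDC2, had 71.2 to 409 CPM in cycling and 76.1 to 319 CPM in non-cycling cells and did not pass the test (-0.005 ± 0.199). Irf8 fell there by 0.59 ± 0.16 on the log2 scale (edgeR adjusted p = 0.012), with 15.1 to 50.5 CPM in cycling and 22.2 to 66.9 CPM in non-cycling cells. Its call was lost without hashtag 4 or 9, without the replicate block and with cells of 8000 to 40000 UMIs. Leaving out cells of at least 3 UMIs of Ccr7 and Fscn1 together lost it too.

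**Figure D4:**
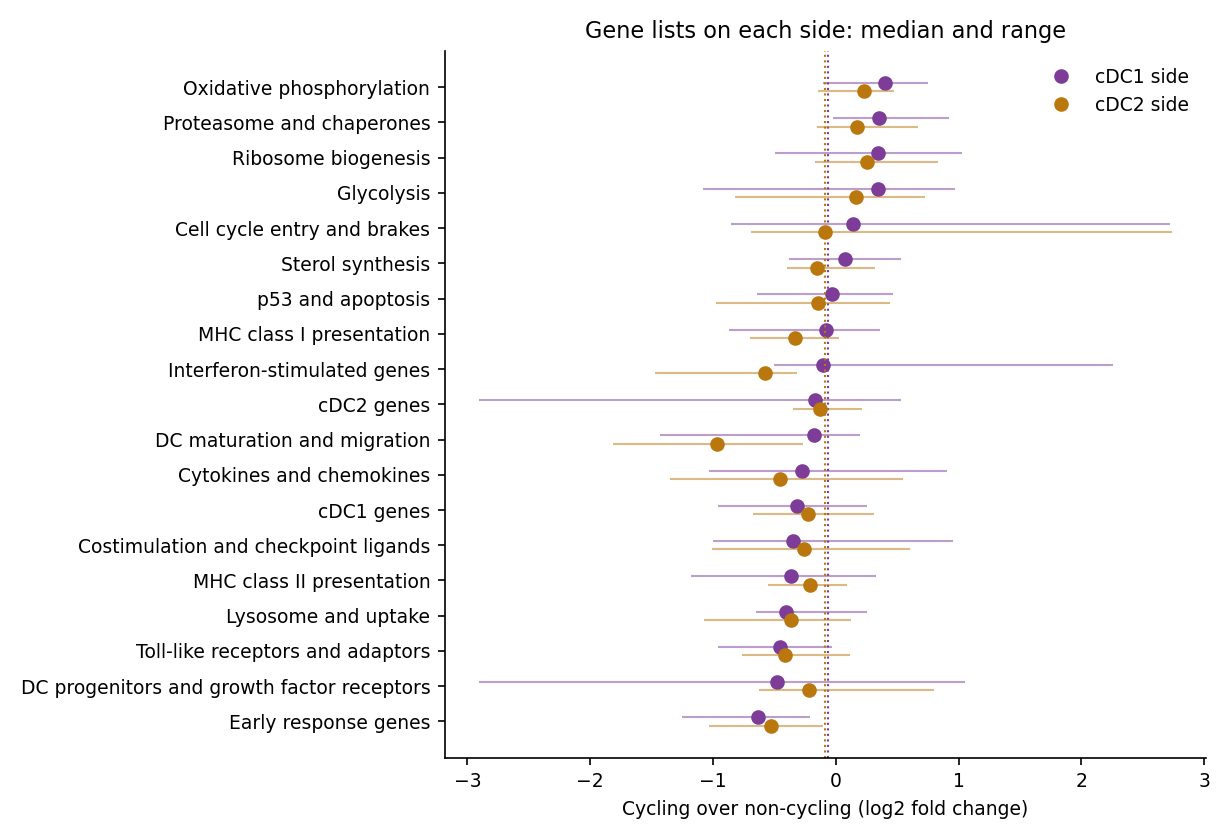
Log2 fold change of cycling over non-cycling cells on the cDC1 side and the cDC2 side for the lists outside the cell cycle: points are medians over the genes past the filter, lines run from the lowest to the highest gene, and dotted lines mark the median of all genes tested on that side. The maturation list lies at -0.18 on the cDC1 side and -0.97 on the cDC2 side, and the early response list at -0.63 and -0.53.

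The difference between the sides was itself tested. In the interaction of class and side, 2 of 10508 genes were called (0.019%), 1 higher (0.00952%) and 1 lower (0.00952%) on the cDC1 side, while 741 had an unadjusted p below 0.05 and DESeq2 called 44. No gene of the maturation list was called, so a difference of that list between the sides is not shown. Gm34084 fell more on the cDC1 side, with a difference of -1.52 ± 0.18 (edgeR adjusted p = 0.00042): it had 8.33 to 77.4 CPM in cycling and 31.8 to 273 CPM in non-cycling cells there, against 27.6 to 143 and 39.0 to 199 CPM on the cDC2 side. Vopp1 differed by 1.283 ± 0.217 (edgeR adjusted p = 0.037). It had 12.5 to 35.2 CPM in cycling and 8.79 to 11.4 CPM in non-cycling cells of the cDC1 side, and 29.9 to 49 and 45.4 to 65.8 CPM on the cDC2 side. Its call was lost when any 1 hashtag was left out.

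How often cells were in the gate was compared between subsets. The share of members among all cells within the limits was 8.56%, 5.42%, 7.29%, 12.4%, 10.4% and 10.6% in hashtags 2, 4, 5, 6, 8 and 9. On the cDC1 side it was 15.5%, 10.7%, 13.1%, 11.9%, 7.2% and 10.6%, and on the cDC2 side 9.27%, 5.31%, 8.33%, 14.4%, 12.9% and 12.1%. The cDC1 side was higher in hashtags 2, 4 and 5 and lower in hashtags 6, 8 and 9. The mean difference was 1.10 percentage points (SD 4.98, n = 6), with p = 0.594 in a two-sided exact permutation test of sign flips, whose smallest possible p is 0.0312. A setting added after the data had been seen required at least 3 of the 4 gate genes. There the cDC1 side was higher in 6 of 6 hashtags, by 3.15 points (SD 2.52, exact permutation p = 0.0312, the smallest possible). This setting was not repeated at equal depth. With an S phase gate in place of the main one (Pclaf, Tyms, Rrm2 and Tk1 summing to at least 5), it was again higher in 6 of 6, by 4.32 points (SD 3.11; exact permutation p = 0.0312). cDC1-side cells were deeper, so the S phase gate was repeated after each cell had been thinned to 4000 UMIs, with a sum of at least 2. This repeat was also added after the data had been seen. The difference in the repeat was 2.01 points, with the cDC1 side higher in 5 of 6 hashtags (exact permutation p = 0.0625). The main gate thinned in the same way gave -2.88 points (exact permutation p = 0.312), with 2235 of the 14331 cells too shallow and left out. The S phase gate held 647 cells, of which 549 (84.9%) were members, and these were 38.8% of members.

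**Figure D5:**
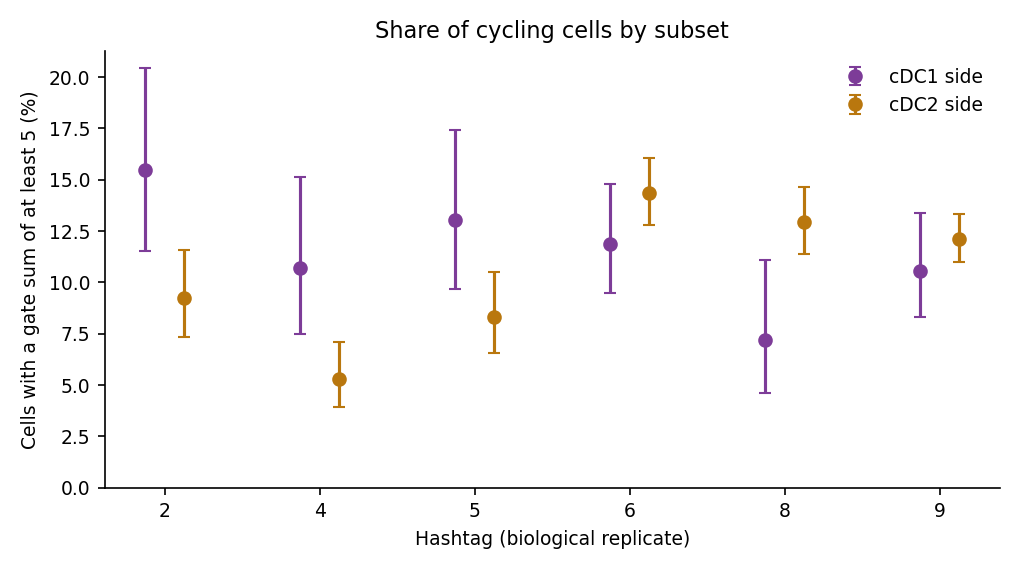
Percentage of cells with a gate sum of at least 5 on the cDC1 side and the cDC2 side, by hashtag; bars are 95% Wilson intervals and cover counting error only. The cDC1 side is higher in hashtags 2, 4 and 5 (15.5%, 10.7% and 13.1%) and lower in hashtags 6, 8 and 9 (11.9%, 7.2% and 10.6%).

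Cycling cells of the 2 sides differed in the genes of their subset. The sides were cut on Xcr1, Clec9a and Sirpa, which are left out of these counts, so this contrast is given as a description, and its counts of genes called say only how far the split reaches. Between cycling cells of the cDC1 side and those of the cDC2 side, 4102 of 10508 genes passed the call rule (39%), 1995 (19%) higher and 2107 (20.1%) lower on the cDC1 side. All 16 cDC1 genes had positive log2 fold changes (median 3.65), and 13 of 15 cDC2 genes negative ones (median -3.12). Irf8 differed by 5.34 ± 0.17, with 888 to 1617 CPM on the cDC1 side and 15.1 to 50.5 CPM on the cDC2 side. Irf4 differed by -2.95 ± 0.26. Tlr3, a receptor for double-stranded RNA, was higher by 4.56 ± 0.17, and Mycl, a MYC family factor of cDC1, by 2.66 ± 0.19, each in 6 of 6 hashtags. Cd274, the gene of PD-L1, differed by -3.17 ± 0.24. Of proteasome and chaperone genes 18 of 18 were positive, of oxidative phosphorylation genes 18 of 19 and of ribosome biogenesis genes 17 of 20. Of sterol synthesis genes 12 of 14 were negative, and of maturation genes 20 of 20 (median -1.73). Of the DNA replication genes 29 of 35 were positive with a median of 0.25, and of the G2 and mitosis genes 27 of 40 with a median of 0.11. Of the 250 cycling cells on the cDC1 side, 18 (7.2%) also had at least 3 UMIs of Sirpa, against 14 of 1229 non-cycling ones (1.14%), and the part of doublets in this was not tested.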

How the data were processed

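Hashtagged cells were pooled and run as droplet libraries with the Chromium 3' v3 kit, as the labels' protocols state. The deposited matrix holds raw UMI counts for features and barcodes, and the submitters' processing notes name Cell Ranger 8.0.1 and the mm10 build; the sources used here do not give the use of introns or strand in counting. A second deposited file names a hashtag for every barcode, with the probability of that call as a fraction, and the tool behind it is likewise unstated. Of the 27679 barcodes in it 19239 had 1 hashtag, and 4815 multiplets were left out; no doublet caller was run, so doublets within a hashtag remained. The members, the gene lists and the tests were chosen with earlier results of these data known.

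Counts were summed per hashtag, class and side, for libraries of at least 10 cells. edgeR 4.0.16 (TMM, filterByExpr, quasi-likelihood test, Benjamini-Hochberg adjustment over all genes tested) was run in R 4.3.3 with hashtag as a block, because both classes of a hashtag come from the same replicate: 12 libraries for the whole gate and 24 for the sides. The block takes out differences in level between hashtags. Over the whole gate the p-values therefore measure how the difference between classes varies over hashtags (5 residual degrees of freedom). The fit of the sides used the same hashtag term for every class (15 residual degrees of freedom). Its spread is pooled over both sides, so its p-values do not measure how the difference on either side alone varies over hashtags. Genes named were a fixed set, up to 3 called members per list and contrast, the 5 highest and 5 lowest called genes in no list with at least 20 CPM in a class, and the most abundant members of cell cycle lists. Fold changes are log2 values with standard errors, and a gene whose non-cycling counts are near 0 has a fold change that depends on the prior count. DESeq2 1.42.0, other gates, depth matching and leaving out each hashtag were alternatives. Shares have 95% Wilson intervals, which cover counting error only. The scripts were tested on simulated data with 200 changed genes.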

Additional observations from a re-analysis of the deposited data

Results flagged for a closer look

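Dixon's test was applied to 204 sets of 6 hashtag values: shares of cycling cells, median UMIs and, for named genes, within-hashtag differences. In 8 sets, all of them differences, 1 hashtag lay far from the other 5, where chance gives about 1 in 20. Values are log2(CPM + 1) differences of cycling minus non-cycling cells. Over the whole gate the difference of 1 of the 2 features that carry the name Aldoa was -1.33 in hashtag 2. On the cDC1 side that of Ccnd1 was 0.21 in hashtag 5 and that of Lamp2 was -0.92 in hashtag 4. On the cDC2 side those of Klf4 (0.56), Itgae (1.08), Dkc1 (1.34) and Sema6d (-6.46) stood apart in hashtag 4, and that of Cd86 (-0.77) in hashtag 2. Hashtag 4 held the fewest cycling cells, 79.

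The effect of cycling differed between the sides for Vopp1 (1.283 on the log2 scale) and Gm34084 (-1.52), by edgeR's test of the interaction. Outside the comparisons, 723 of 3935 hashtag multiplets within the same limits passed the cycling sum (18.4%), against 1416 of 14331 single-hashtag cells (9.88%).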

How the results depend on the processing

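Without the replicate block, the counts of genes called were 850 over the whole gate, 1008 on the cDC1 side, 624 on the cDC2 side, 0 for the difference of sides (274 with an unadjusted p below 0.05 in edgeR, against 44 called by DESeq2 with the block) and 2398 between cycling cells of the sides, and no early response gene was called. The S phase gate gave 5383 over the whole gate, 3622 on the cDC2 side and 28 for the difference. Depth-matched cells gave 1229, 905 and 4 on the cDC1 side, the cDC2 side and for their difference. On the cDC2 side a sum of at least 10 gave 2593 and at least 3 of the 4 genes 2785, with 12 and 10 for the difference. The difference was 4 with RLE factors, 21 with no filter on low counts, 6 with libraries of at least 20 cells, 5 with cells of 8000 to 40000 UMIs and 4 with at least 1000 genes and at most 5% mitochondrial UMIs. Leaving out 1 hashtag gave 1821 to 2768 over the whole gate, 1526 to 2068 on the cDC1 side, 921 to 1538 on the cDC2 side, 1 to 2 for the difference and 3079 to 4003 between cycling cells of the sides. The share on the cDC1 side minus that on the cDC2 side was -2.04 points with a sum of at least 3, 4.32 with the S phase gate, -2.88 after thinning, 3.15 with at least 3 genes and 0.0777 to 2.46 with 1 hashtag left out. Mycl had a log2 fold change of 0.36 under the S phase gate, against -0.12 over the whole gate. The cause of these moves was not tested. Of 225 named results called, 110 kept the call in every setting and 115 lost it in at least 1. Depth limits the cDC1 side, where hashtag 8 had 18 cycling cells.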
